A study of Mus musculus with 20 samples.

Results

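Chemokines are small secreted proteins that bind G protein-coupled receptors on leukocytes and set where those cells go. The 10 genes described here are CC chemokines (Ccl2, Ccl3, Ccl4, Ccl7, Ccl9, Ccl12 and Ccl22) and CXC chemokines (Cxcl1, Cxcl2 and Cxcl16), chosen by name. They are 10 of the 25112 genes that both deposited transcript tables hold. Ccl2, Ccl7 and Ccl12 attract monocytes through the receptor Ccr2, while Ccl3 and Ccl9 act through Ccr1, and Ccl4 is a close relative of Ccl3. Cxcl1 and Cxcl2 attract neutrophils through Cxcr2. Ccl22 is a ligand of Ccr4 made by dendritic cells and macrophages, and Cxcl16 is a membrane-tethered ligand of Cxcr6 that can be shed. In retina damaged by laser, a mouse model of choroidal neovascularisation, Ccl2 and Ccr2 are best known for drawing blood monocytes to the lesion.

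The cells came from C57BL/6 mice aged 8 weeks, with about 6 mice in 3 experiments by the study's own account, and were sorted for the leukocyte marker CD45. Single cells were sequenced by mCEL-Seq2, which counts the 3′ ends of transcripts with molecular identifiers, in 20 libraries of 192 wells. Of 5 groups with 4 libraries each, 2 were retina taken 3 days and 7 days after laser lesioning, and the others were retina without laser (control), cornea and ciliary body, all of the same strain and age. The cornea and ciliary body libraries carry no mention of laser in the labels. The authors' annotation gives each kept cell a cluster and a class, as microglia, dendritic cells (DC), macrophages, or a mixed class, left joint by the authors, of monocytes, granulocytes and lymphocytes. Transcripts of a class were summed over the libraries that share a title prefix, which gave 2 library pairs per group, and levels are given in CPM, counts scaled to a total of 1e+06 transcripts. The labels do not say which animal a library came from, so a test over pairs measures the spread between these pairs, which may be technical.

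Libraries held between 371329 and 3325825 transcripts. The authors' annotation covers 829 wells, and the classes used here hold between 26 and 121 cells per group. The microglial class had all 14 microglial markers above 0, with summed levels of 57073 and 61803 CPM in the control pairs, 28419 and 34882 CPM at day 3, and 41424 and 42769 CPM at day 7. The 7 measured DC markers summed to between 1415 and 2479.5 CPM in the DC pairs, against at most 257 CPM in microglial pairs. Markers of border macrophages summed to 1380 and 1540 CPM in cornea macrophages and 586 and 886 CPM in ciliary body macrophages, although Folr2 was at 0 in both classes and Lyve1 was at 0 in cornea. Wells of cornea macrophages also held transcripts of 8 corneal epithelial markers, at 23835 and 29767 CPM in sum, against 3.85 and 2465 CPM in ciliary body macrophages. Photoreceptor transcripts in microglial wells summed to between 5251 and 9422 CPM in control, between 2412 and 3811 CPM at day 3 and between 9635 and 11578 CPM at day 7.

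RefSeq's promoter table (GRCm38.p6) holds 6 of the 10 genes, which are Ccl3, Ccl9, Ccl12, Ccl22, Cxcl1 and Cxcl2. The 250 bases before the start site were searched on both strands for 3 motifs, an NF-kB type motif (GGG, any 2 bases, then TTTCC), an AP-1 type motif (TGANTCA) and an interferon-response type motif (GAAA, any 2 bases, then GAAA). Of 32851 promoters in the table, 1.41% held the first, 6.75% the second and 2.98% the third. Cxcl2 and Cxcl1 are shown because both hold 2 copies of the NF-kB type motif. Whether a motif goes with the level of a gene was not tested. Ccl9 is shown for its single copy and its AP-1 type match, and Ccl3 as a gene with no match to the 3 motifs. Capitals mark the matches.
Cxcl2: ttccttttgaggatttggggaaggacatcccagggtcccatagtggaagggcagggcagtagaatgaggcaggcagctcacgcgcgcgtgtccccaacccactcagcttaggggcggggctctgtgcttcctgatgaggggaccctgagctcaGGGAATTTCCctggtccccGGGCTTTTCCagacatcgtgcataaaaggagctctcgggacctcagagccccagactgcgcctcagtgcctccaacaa
Cxcl1: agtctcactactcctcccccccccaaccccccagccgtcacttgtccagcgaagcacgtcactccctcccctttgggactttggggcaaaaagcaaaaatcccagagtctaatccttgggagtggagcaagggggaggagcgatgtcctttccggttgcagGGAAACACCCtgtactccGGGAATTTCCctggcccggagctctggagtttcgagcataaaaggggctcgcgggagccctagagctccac
Ccl9: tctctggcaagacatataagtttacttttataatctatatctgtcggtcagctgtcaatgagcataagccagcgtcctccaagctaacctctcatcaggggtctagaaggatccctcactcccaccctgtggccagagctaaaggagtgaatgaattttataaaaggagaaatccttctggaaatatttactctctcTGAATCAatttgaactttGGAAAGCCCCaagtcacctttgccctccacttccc
Ccl3: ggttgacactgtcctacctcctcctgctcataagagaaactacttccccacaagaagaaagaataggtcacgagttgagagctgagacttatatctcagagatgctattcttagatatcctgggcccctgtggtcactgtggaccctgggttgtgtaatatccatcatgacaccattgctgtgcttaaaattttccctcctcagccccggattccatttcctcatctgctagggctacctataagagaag
These stretches lie at chr5:90903649-90903898 and chr5:90890995-90891244 on the plus strand, and at chr11:83578637-83578886 and chr11:83649379-83649628 on the minus strand. In Cxcl2 the 2 copies begin 97 and 78 bases before the start site, and in Cxcl1 they begin 89 and 71 bases before it. The Ccl9 copy begins 35 bases before the start and its AP-1 type match 53 bases before it, with no overlap. The promoters of Ccl12 and Ccl22 had no match either, which says only that these letters are absent from the window. Because 3′ reads of close relatives can be confused, the longest coding transcripts of the GENCODE M21 annotation were compared. Ccl2 and Ccl12 shared no run of 30 bases, and their longest shared run was 17 bases. The longest run shared by any pair among the CC genes, with the neighbouring chemokine Ccl6 included, was 25 bases, in Ccl9 and Ccl6, and that of Cxcl1 and Cxcl2 was 23 bases.

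The first question was which of these genes microglia expressed more or less after the laser lesion. Ccl2 rose at day 3, by 1.47 on the log2 scale, and was the 1 member whose difference passed the test. Ccl12 had a larger log2 change and did not pass. Ccl3, Ccl4, Ccl9 and Cxcl16 did not pass at either day, and Ccl7, Ccl22, Cxcl1 and Cxcl2 had too few transcripts to be tested. Day 3 and day 7 were compared with the same control pairs, so the 2 comparisons are not independent.

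Among the ligands of Ccr2, Ccl2 was measured at 128 and 92.4 CPM in control microglia, 206 and 348 CPM at day 3, and 134 and 229.8 CPM at day 7. Both day 3 pairs and both day 7 pairs lay above both control pairs. The day 3 difference passed edgeR's quasi-likelihood test over all genes (log2 change 1.47 ± 0.40, SE, adjusted p = 0.0103), and the day 7 difference did not (log2 change 0.77 ± 0.43, adjusted p = 0.424). The day 3 call was lost without the second control pair (log2 change 1.26, adjusted p = 0.11), without the second day 3 pair (log2 change 1.05, adjusted p = 0.167), with sums thinned to the smallest (adjusted p = 0.0745) and under DESeq2 (adjusted p = 0.139), which called Ccl12 instead (adjusted p = 0.000108). Over the alternatives its adjusted p ranged from 0.000471 to 0.167.

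Ccl12, a mouse chemokine related in sequence to Ccl2, was measured at 223 and 313 CPM in control microglia, 1868 and 752 CPM at day 3, and 693 and 1205 CPM at day 7. Each lasered pair lay above both control pairs, and the day 3 pairs differed from each other by more than the control pairs did. The log2 change was 2.20 ± 0.61 at day 3 (adjusted p = 0.0632) and 1.76 ± 0.62 at day 7 (adjusted p = 0.293), so neither was called. The day 3 difference was called in 10 of 14 alternatives, with adjusted p between 5.77e-13 and 0.356, and the day 7 difference in 5 of 14, between 5.02e-06 and 0.658. One library of 12 cells at day 3 stood at 3234 CPM while the other 3 day 3 libraries lay between 699.9 and 936 CPM, and 1 well held 24.8% of the day 3 microglial Ccl12 transcripts. Without the well richest in the 10 genes in each pair, the day 3 log2 change was 1.93 (adjusted p = 4.07e-05). Markers of other cell types also differed within the microglial class. The 7 DC markers summed to between 79.8 and 99.5 CPM in control, 122 and 127 CPM at day 3, and 228 and 257 CPM at day 7, and the 1 of them that could be tested was called higher on both days. The 8 monocyte markers summed to between 64 and 79.8 CPM in control, 75.1 and 513 CPM at day 3, and 119.4 and 202 CPM at day 7, with 0 of 2 tested called and with Vcan and Hp at 0 in the 3 groups. Their part in the Ccl2 and Ccl12 values was not tested.

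More cells carried Ccl12 after laser. With each cell thinned to 1000 transcripts, the share of microglia with at least 1 Ccl12 transcript was 19% in control, 48.1% at day 3 and 40.7% at day 7, and before thinning it was 28.3%, 63% and 55.8%, at median depths of 1509, 2689 and 2135 transcripts per cell. Wells of photoreceptor content outside the annotation held it at 10.5% in control, 9.52% at day 3 and 17.1% at day 7, at median depths of 2220, 1592 and 1764 transcripts. Cells in these wells were also sorted for CD45, so whether the wells hold leukocytes is not known. The Ccl12 shares in microglia were above those of the photoreceptor wells in each of the 3 groups. Ccl2 was found in 10.3% of thinned control microglia, 21% at day 3 and 12.4% at day 7. These shares were compared as a description, with no test over cells. Ccl7 had 1 transcript in day 3 microglia, 2 at day 7 and none in control, so no fold is given.

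Ccl3 and Ccl4 are the macrophage inflammatory proteins MIP-1α and MIP-1β. Ccl3 stood at 271 and 277 CPM in control microglia, 272 and 183.2 CPM at day 3, and 128 and 358 CPM at day 7. The 3 groups overlapped, with log2 changes of -0.31 ± 0.40 at day 3 (adjusted p = 0.595) and -0.22 ± 0.40 at day 7 (adjusted p = 0.877). Ccl4 stood at 224 and 128 CPM in control, 253 and 212 CPM at day 3, and 80.6 and 626 CPM at day 7. The day 7 pairs fell on either side of the control pairs, and 1 well held 43.8% of the day 7 Ccl4 transcripts. In control 1 well also held 43.8%, which were the 14 transcripts of the first pair. The log2 changes of Ccl4 were 0.50 ± 1.22 at day 3 (adjusted p = 0.81) and 1.05 ± 1.19 at day 7 (adjusted p = 0.812).

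Ccl9, also called MIP-1γ in mouse, stood in microglia at 303 and 235 CPM in control, 235 and 282 CPM at day 3, and 269 and 248 CPM at day 7. Its log2 changes were 0.01 ± 0.31 (adjusted p = 0.984) and 0.00 ± 0.31 (adjusted p = 0.999). Cxcl16 stood at 95.7 and 71.1 CPM in control microglia, 150.1 and 112.7 CPM at day 3, and 242 and 174 CPM at day 7. Each day 7 pair lay above each day 3 pair, and each day 3 pair above each control pair, but the difference from control was not called at day 3 (log2 change 0.69 ± 0.45, adjusted p = 0.271) or at day 7 (1.42 ± 0.43, adjusted p = 0.0806).

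The neutrophil attractants had few transcripts in retinal microglia. Cxcl2 had 5 transcripts in control microglia, 0 at day 3 and 10 at day 7, and stood at 0 and 35.5 CPM in the control pairs, 0 in both day 3 pairs, and 0 and 91.8 CPM in the day 7 pairs. Cxcl1 had 2 transcripts in control, 0 at day 3 and 2 at day 7. Before thinning, 4.17% of control microglia held a Cxcl2 transcript, against 8.77% of control photoreceptor wells, and for Cxcl1 the shares were 1.67% and 1.75%. The wells were deeper, at a median of 2220 transcripts against 1509 in microglia. In pooled CPM the order was reversed, with Cxcl2 at 24.6 in control microglia and 10.6 in the wells. Cxcl1 stood at 9.83 and 1.51 CPM. Whether these few control transcripts are background was not tested. At day 7, 6.19% of microglia held a Cxcl2 transcript, against 2.56% of photoreceptor wells. Ccl22 was at 0 in microglia of the 3 retina groups, where 3 transcripts would amount to between 9.38 and 14.8 CPM.

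Of the 10 members, 6 passed the filter on low counts in microglia. At day 3, 1 of these 6 rose and 0 fell, where 22.3% of all 3197 genes tested were called. The median log2 change was 0.59 over the 6 members and 0.00 over all genes. At day 7, 0 of the 6 were called by edgeR, where 1.69% of all genes were, 2 of the 6 had an unadjusted p under 0.05, and DESeq2 called 1. The median log2 change was then 0.91 over the members and -0.01 over all genes. Between day 7 and day 3, 0 of 6 were called, where 9.79% of all genes were, with 0 at an unadjusted p under 0.05 and 0 under DESeq2, and the median was 0.04 over the members and 0.03 over all genes.

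**Figure D1:**
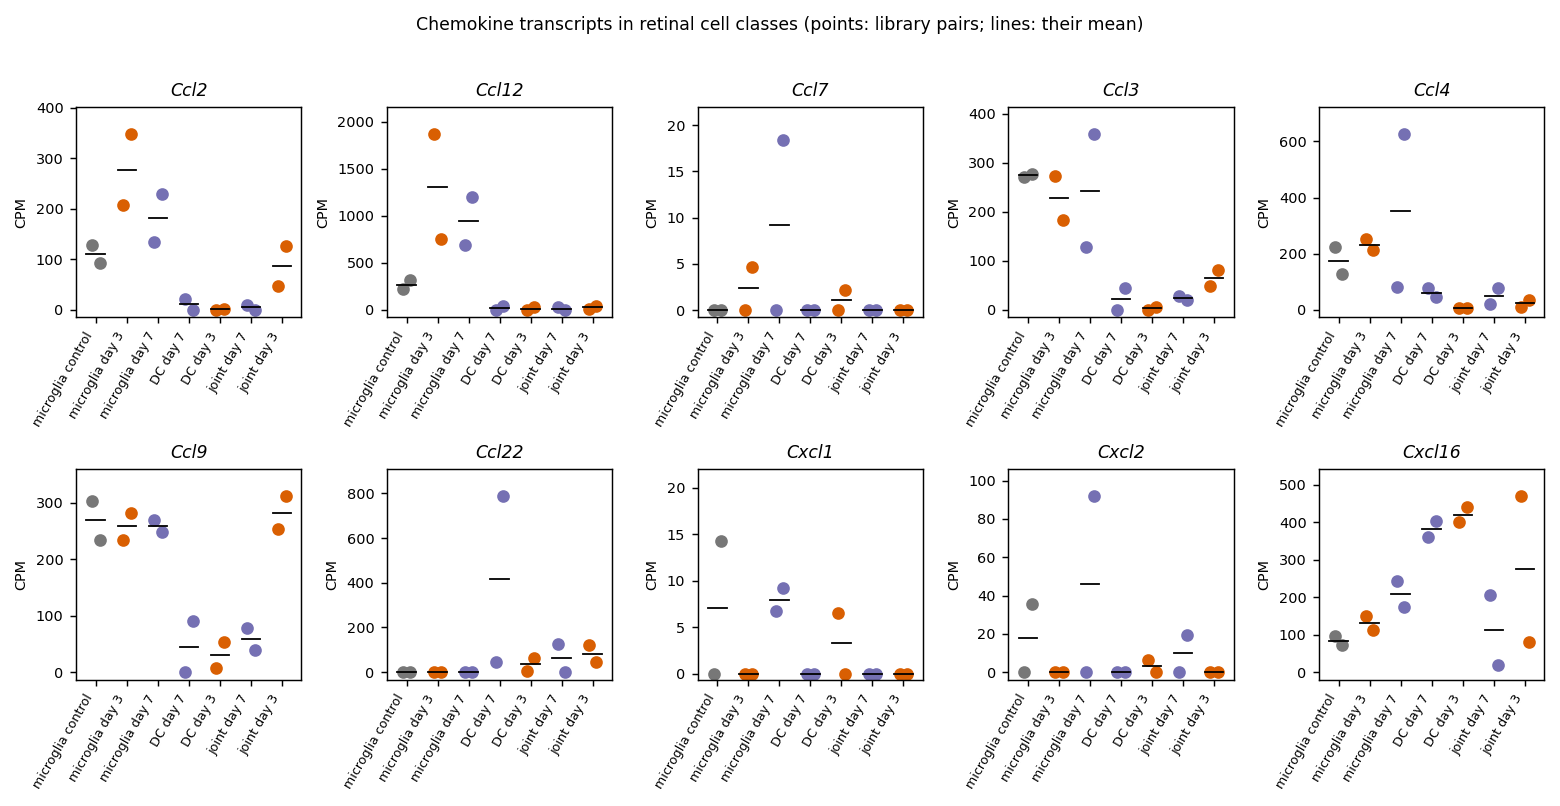
Levels of the 10 chemokines in CPM (y axes, linear, each with its own scale) in retinal microglia of control, laser day 3 and laser day 7 and in dendritic cells (DC) and the joint class (monocytes, granulocytes and lymphocytes) at day 7 and day 3; each point is a library pair and each line the mean of 2 pairs. Ccl12 reached 1868 and 752 CPM in day 3 microglia, above the 223 and 313 CPM of control, while Cxcl16 lay between 360.4 and 441 CPM in the DC pairs.

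Genes around the chemokines in microglia were read from lists chosen with earlier results known. Of 24 other chemokines, 3 could be tested in microglia. Cxcl10, an interferon-induced ligand of Cxcr3, rose at day 3 (127 ± 33.6 CPM at day 3 and 10.7 ± 15.1 CPM in control, SD, n = 2 pairs each; log2 change 3.18 ± 0.84, adjusted p = 0.0112) and at day 7 (186 ± 140 CPM; log2 change 3.62 ± 0.82, adjusted p = 0.0266), 1 of 3 genes in each comparison, from 3 transcripts in control. The median of the 3 was 0.15 at day 3 and 1.53 at day 7. Ccl5, which attracts T cells, was higher at day 7 than at day 3 (343 ± 277 CPM at day 7 and 46.9 ± 13.3 CPM at day 3; adjusted p = 0.032), 1 of 3, with a median of 0.44. Of 21 chemokine receptors, 4 were tested. Cxcr2, the receptor for Cxcl1 and Cxcl2, fell at day 3 (28.2 ± 0.0131 CPM at day 3 and 197 ± 37.3 CPM in control; log2 change -2.75 ± 0.51, adjusted p = 0.000602), as did Cx3cr1, the fractalkine receptor of microglia (log2 change -0.98 ± 0.18, adjusted p = 0.000527). These were 2 of 4 receptors lower at day 3 (median -0.65) and 1 of 4 at day 7 (median -0.18), where Cx3cr1 was called (log2 change -0.83 ± 0.18, adjusted p = 0.0145). At day 7 against day 3, 1 of 4 receptors was higher, Cxcr2 (log2 change 2.41 ± 0.51, adjusted p = 0.00449), with a median of 0.22. The shares of all genes called were 22.3% at day 3, 1.69% at day 7 and 9.79% between the days. With 3 control transcripts, Cxcl10 could hardly be called lower.

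Of 19 genes of NF-kB signalling and its targets, 8 were tested in microglia, and 2 of them, Cd14 (log2 change -1.47 ± 0.28) and Tnfaip3 (-2.55 ± 0.71), fell at day 3 (median -0.48), 0 passed at day 7, where 2 had an unadjusted p under 0.05 (median 0.01), and 1, Nfkbia, was higher at day 7 than at day 3 (log2 change 1.13 ± 0.35, median 0.58). Of all genes tested, 22.3% were called at day 3, 1.69% at day 7 and 9.79% between the days. The NF-kB counts at day 3 and between the days were near these shares. Of 15 immediate early genes, 8 were tested. Fos (log2 change -2.66 ± 0.40), Jun (-1.91 ± 0.30), Junb (-1.62 ± 0.33) and Btg2 (-1.68 ± 0.36) were among 6 that fell at day 3 (median -1.65), and Jun and Fos were the 2 that fell at day 7 (median -1.11). Between day 7 and day 3, 0 of the 8 were called, with 0 at an unadjusted p under 0.05 (median 0.39). The immediate early list as a whole summed to 1216 and 1333 CPM at day 3 and 3175 and 4039 CPM in control. The rise of Ccl2 at day 3 stood beside a lower level of these genes in the same pairs, and their part in it was not tested.

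The lesioned retina also held DC and the joint class, which were nearly absent from control retina, where 2 cells of the joint class and 0 DC were annotated. Cxcl16 was the 1 member that passed the filter in DC. It stood at 360.4 and 404 CPM in day 7 DC, against 399.6 and 441 CPM in day 3 DC, and the pairs overlapped. The log2 change was -0.06 ± 0.28 (adjusted p = 0.964). Before thinning, 69.2% of DC at day 7 and 74.4% at day 3 held a Cxcl16 transcript, against 12.8% and 9.52% of photoreceptor wells on those days. The DC were deeper, at medians of 5091 and 7306 transcripts against 1764 and 1592 in the wells. Thinned, the DC shares were 15.4% at day 7 and 30.5% at day 3. The wells were not thinned, so shares at equal depth were not compared. In pooled CPM, Cxcl16 stood at 375 and 430 in DC, against 39.7 and 31.6 in the wells.

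Ccl22 in DC came from few wells. At day 7 its level was 45.1 and 787 CPM, against 6.55 and 63.9 CPM at day 3, so the ranges overlapped. The 39 transcripts at day 7 lay in 3 of 26 cells, and the 30 transcripts at day 3 lay in 7 of 82 cells, with 51.3% and 60% of them in 1 well. Ccl22 and the other 8 members did not pass the filter in DC. Of the 1 member tested, 0 were called, where 0.179% of all 2240 genes were, with 0 at an unadjusted p under 0.05 and 0 under DESeq2.

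In the joint class, Ccl9 stood at 77.8 and 39.2 CPM at day 7, against 253 and 312 CPM at day 3. The 2 days did not overlap, but the difference was not called (log2 change -2.15 ± 0.51, adjusted p = 0.117). At day 3, 5 wells held 79.2% of its transcripts. In the authors' cluster 8 of this class, 9 cells held 29 Ccl9 transcripts. Cxcl16 stood at 204 and 19.6 CPM at day 7, against 469.9 and 80.7 CPM at day 3 (log2 change -1.09 ± 0.97, adjusted p = 0.687). Ccl22 stood at 127 and 0 CPM at day 7, against 120.5 and 46.1 CPM at day 3 (-0.11 ± 1.06, adjusted p = 0.98). Ccl2 had 1 transcript at day 7 and 15 at day 3, a ratio of 0.0736 with a counting interval of 0.00175 to 0.478 that leaves out the spread between pairs. The 11 lymphocyte markers of this class summed to 180.6 and 773 CPM at day 3, against 2024.6 and 2710 CPM at day 7. Of 6 tested, 0 were called, with 5 at an unadjusted p under 0.05. The 8 monocyte markers overlapped, at 2891.9 and 5621.6 CPM at day 3 and 3931.4 and 4604.8 CPM at day 7. Class values take in both the make-up of the class and the level within its cells. The part of the make-up in these differences was not tested. Of the 3 members tested, 0 were called, where 0.345% of all 1737 genes were, 1 had an unadjusted p under 0.05, and DESeq2 called 0. The median log2 change was -1.08 over the 3 members and 0.01 over all genes.

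For the other chemokines, 0 of 2 were called in DC between day 7 and day 3 and 0 of 4 in the joint class, with 1 and 2 at an unadjusted p under 0.05 (medians 1.17 and 0.15). For the receptors, the NF-kB list and the immediate early list, 0 of 8, 0 of 7 and 0 of 6 were called in DC (medians 0.07, 0.11 and 0.28), with 1, 3 and 1 at an unadjusted p under 0.05. In the joint class 0 of 9, 0 of 8 and 0 of 7 were called (medians -0.93, -1.01 and -0.63), with 5, 4 and 3 at an unadjusted p under 0.05. The share of all genes called was 0.179% in DC and 0.345% in the joint class.

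The members divided among the classes of the lesioned retina in different ways. Because these classes may rest on the same transcripts, the following shares are a description. At day 3, microglia were 38.8% of annotated retinal cells and held 29.2% of their transcripts, but 95.2% of the 377 Ccl12 transcripts (95% Wilson interval 92.6 to 97), 85.7% of the 112 of Ccl2, 82.9% of the 82 of Ccl3 and 90% of the 80 of Ccl4. At day 7, when microglia were 62.8% of cells, they held 97.9% of Ccl12, 93.8% of Ccl2, 90.6% of Ccl3 and 84.2% of Ccl4 transcripts. Ccl9 was more evenly spread at day 3, with 53.8% in microglia, 15.8% in DC and 30.4% in the joint class, and at day 7 the microglial share was 82.7%. DC held 75.2% of the 347 Cxcl16 transcripts at day 3 (70.4 to 79.5) and 39.4% of 127 at day 7 (31.3 to 48.1), while making up 39.2% and 14.4% of the cells and holding 55.4% and 24.5% of all transcripts. Ccl22 lay outside microglia, with 68.2% of 44 transcripts in DC at day 3 (53.4 to 80, an interval that takes in the DC share of all transcripts) and 75% of 52 at day 7 (61.8 to 84.8), and the rest in the joint class. These intervals cover counting error only.

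**Figure D2:**
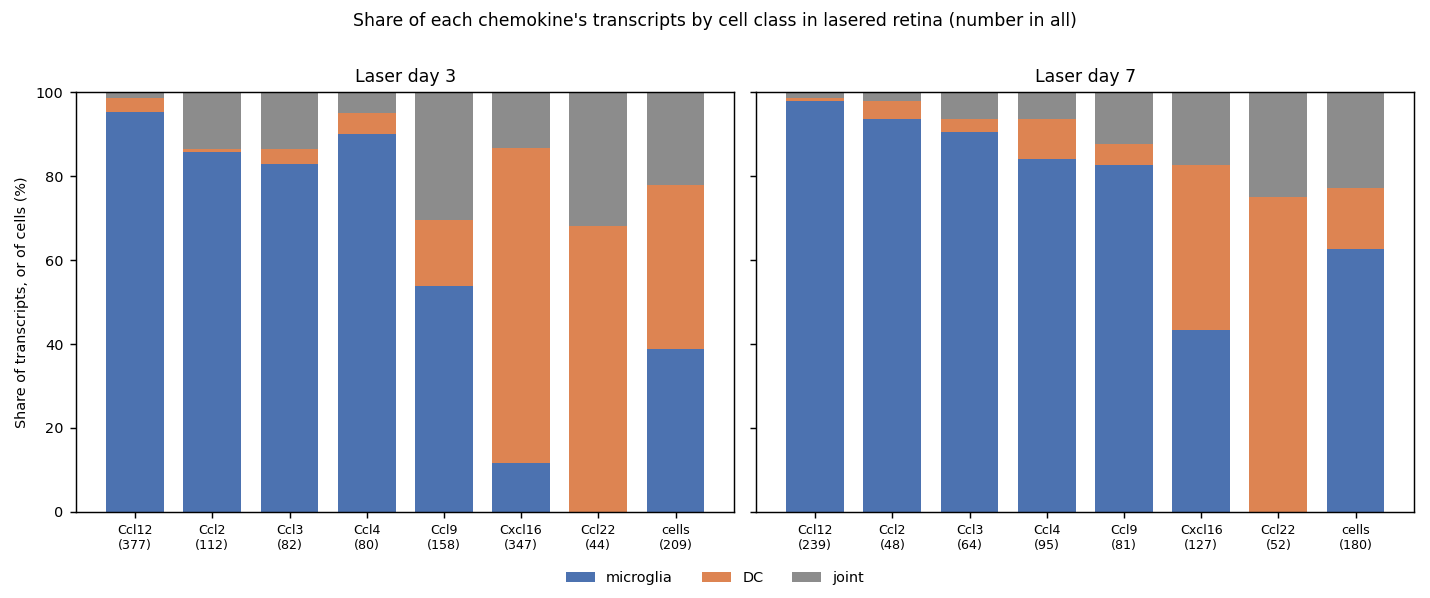
Share of the transcripts of 7 chemokines (y axis, percent; the number of transcripts stands under each name) that lay in microglia, dendritic cells (DC) and the joint class at laser day 3 (left) and laser day 7 (right), with the share of annotated cells in the last bar. Ccl12 lay at 95.2% and 97.9% in microglia, Cxcl16 at 75.2% and 39.4% in DC, and Ccl22 had no transcript in microglia.

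Summed over all annotated retinal cells, the mix of classes and the level within them act together, and fewer cells of a type cannot be told apart from less RNA per cell. At day 3, 1 of 7 members tested rose and 1 fell, where 26.8% of 6261 genes were called. Cxcl16 rose (323 CPM at day 3 and 82.1 CPM in control, means of 2 pairs; log2 change 2.19 ± 0.33, adjusted p = 9.23e-05), and it was called in each of the 14 alternatives, at adjusted p of at most 0.0128. Ccl3 fell (80.7 CPM at day 3 and 270.2 CPM in control; log2 change -1.65 ± 0.45, adjusted p = 0.0166), a difference that was not called in microglia and not called here once the first or the second control pair was left out (adjusted p = 0.125 and 0.282). At day 7, 2 of 7 members rose, where 11.9% of genes were called. Cxcl16 rose again (224 CPM at day 7 and 82.1 CPM in control; log2 change 1.64 ± 0.35, adjusted p = 0.00452; adjusted p = 0.154 without the second control pair). Ccl22 rose, with 52 transcripts at day 7 and 0 in control, and was at least 6.56-fold higher against a floor of 3 control transcripts (adjusted p = 0.019; 0.0564 without the first control pair and 0.225 without the second). At day 3 Ccl22 had 44 transcripts, at least 2.76-fold higher, with an adjusted p of 0.0542. With 0 transcripts in control, Ccl22 could only be called higher. The median log2 change over the 7 members was 0.09 at day 3 and 0.38 at day 7, and 0.04 and 0.03 over all genes.

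In the same sums, 2 of 4 other chemokines tested rose at day 3 (median 1.96, or 1.16 with genes at 0 in control set to their bound) and 2 of 4 at day 7 (3.46), and both times these were Ccl5 (log2 change 1.47 ± 0.40 at day 3 and 3.57 ± 0.37 at day 7) and Cxcl10 (2.48 ± 0.78 and 3.40 ± 0.73). Of 13 receptors tested, 5 were higher and 3 lower at day 3 (median 2.03, at the bound 0.88), and 6 were higher and 1 lower at day 7 (1.75). They included Ccr2, the receptor of Ccl2, Ccl7 and Ccl12 (log2 change 6.43 ± 0.82 at day 3 and 5.57 ± 0.93 at day 7), Ccr1, the receptor of Ccl3 and Ccl9 (3.39 ± 0.51 at day 3), Ccr9 (4.26 ± 0.66 at day 3), Ccr7 (4.97 ± 0.95 at day 7), Cxcr3 (0 transcripts in control; adjusted p = 0.013 at day 7) and, among those that fell, Cx3cr1 (-2.42 ± 0.19 and -1.72 ± 0.18). Ccr2 and Ccr7 rested on 1 control transcript each, Ccr9 on 2 and Cxcl10 on 3, so their sizes are poorly fixed. These genes, with Cxcr3 at 0 and Ccr1 at 5, passed the filter through the lasered groups and could hardly be called lower. They enter the counts and medians. Of all genes tested, 26.8% were called at day 3 and 11.9% at day 7. Of 18 NF-kB genes, 4 were higher and 2 lower at day 3 (median 0.22) and 1 was higher and 1 lower at day 7 (0.35), among them Il1b (3.19 ± 0.44 and 2.66 ± 0.48) and Cd14 (-2.60 ± 0.32 and -1.49 ± 0.32), with Relb (2.19 ± 0.68) and Tnfaip3 (-1.42 ± 0.45) at day 3. Relb rested on 3 control transcripts and Il1b on 8, so these 2 genes could hardly be called lower either. Of 11 immediate early genes, 6 fell at each day (medians -0.98 and -0.87), including Jun (-1.90 ± 0.31 and -1.93 ± 0.32), Fos (-1.46 ± 0.25 and -1.66 ± 0.28), Jund (-1.25 ± 0.24 and -1.12 ± 0.24), Btg2 at day 3 (-0.98 ± 0.26) and Dusp1 at day 7 (-2.20 ± 0.52).

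The second question was how macrophages of the cornea and the ciliary body differ from one another and from microglia of control retina. Here 121 cornea macrophages, 111 ciliary body macrophages and the 33 and 86 microglia of the control pairs entered 1 fit. Both macrophage populations carried Ccl3, Ccl4, Cxcl2 and Cxcl16 at levels far above retinal microglia. Cornea macrophages had more Ccl2 and Ccl9 than ciliary body macrophages. Some clusters of the authors' annotation came mostly from 1 tissue. In clusters 2, 6, 9 and 16, 63 of the 68 cells were from cornea, and in clusters 1 and 10, 45 of the 49 were from ciliary body. Clusters 3, 7 and 8 were mixed, with 33, 8 and 13 cells from cornea and 23, 21 and 17 from ciliary body. Ccl2 ran from 15.4 CPM in cluster 1 to 2626 CPM in cluster 9, and Ccl9 from 107.6 CPM in cluster 1 to 534 CPM in cluster 16. The 10 genes together made up 13659 and 17343 CPM in cornea macrophages and 7611 and 11319 CPM in ciliary body macrophages, against 1141 and 1114 CPM in retinal microglia. Tissue and cell type cannot be told apart in the comparisons with retina. Ciliary body libraries share no title prefix with cornea or retina libraries. Tissue and prefix therefore cannot be told apart where ciliary body is compared, including against cornea.

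In the pair sums, Ccl2 separated cornea from ciliary body. It stood at 756 and 817 CPM in cornea macrophages, 181.1 and 93.3 CPM in ciliary body macrophages and 108 and 82.5 CPM in retinal microglia. Both cornea pairs lay above the other 4 pairs, while the ciliary body pairs overlapped those of microglia. Among single libraries, 1 cornea library of 6 cells stood at 166.7 CPM, within the 60.8 to 260.2 CPM of the ciliary body libraries. The other cornea libraries lay between 601.7 and 994.6 CPM. The log2 change was 2.47 ± 0.34 between cornea and ciliary body (adjusted p = 0.000566), 3.32 ± 0.41 between cornea and microglia (adjusted p = 2.06e-05), and 0.85 ± 0.44 between ciliary body and microglia (adjusted p = 0.162). The difference from ciliary body was called in each of the 14 alternatives, at adjusted p of at most 0.00435. These alternatives include a fit in which Ccl2 and Ccl12 were summed. Thinned, 33.1% of cornea macrophages, 10.8% of ciliary body macrophages and 10.1% of microglia held a Ccl2 transcript.

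Ccl7, which like Ccl2 is a ligand of Ccr2, stood at 149.1 and 151 CPM in cornea macrophages, 0 and 54.5 CPM in ciliary body macrophages and 0 in both microglial pairs. In the ciliary body 1 well held 20 of the 21 transcripts, and in the cornea 61 transcripts lay in 20 cells. The difference between cornea and ciliary body was not called (log2 change 2.24 ± 0.88, adjusted p = 0.322), although 4 of 13 alternatives called it, over a range of 6.31e-05 to 1. With each pair left out the log2 change ranged from 1.44 to 7.77, the higher value without the ciliary body pair that held the transcripts. Against microglia, cornea was at least 10.5-fold higher (adjusted p = 0.0481), a call that 7 of 13 alternatives did not make, and ciliary body at least 2.28-fold higher (adjusted p = 0.233). Ccl12 stood at 303 and 121 CPM in cornea macrophages, 166 and 181.5 CPM in ciliary body macrophages and 169.6 and 275 CPM in microglia, and the 3 populations overlapped, with log2 changes of 0.22 ± 0.38, 0.08 ± 0.41 and -0.15 ± 0.40 (adjusted p = 0.855, 0.909 and 0.821).

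Ccl3 and Ccl4 were high in both macrophage populations. Ccl3 stood at 2019 and 2489 CPM in cornea macrophages and 1229 and 2076 CPM in ciliary body macrophages, against 262 and 268 CPM in retinal microglia. Ccl4 stood at 3091 and 3748 CPM in cornea and 2376 and 3657 CPM in ciliary body, against 216 and 124 CPM in microglia. For both genes the cornea and ciliary body pairs overlapped and each of them lay above both microglial pairs. Against microglia, the log2 change of Ccl3 was 3.31 ± 0.35 in cornea (adjusted p = 5e-06) and 2.91 ± 0.34 in ciliary body (adjusted p = 1.5e-05). For Ccl4 it was 4.63 ± 0.38 (adjusted p = 9.45e-07) and 4.51 ± 0.38 (adjusted p = 1.1e-06). Between cornea and ciliary body the differences were 0.40 ± 0.30 for Ccl3 (adjusted p = 0.591) and 0.13 ± 0.31 for Ccl4 (adjusted p = 0.913).

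Ccl9 stood at 368 and 437 CPM in cornea macrophages, 158 and 209.9 CPM in ciliary body macrophages and 293 and 254 CPM in microglia. The 3 populations did not overlap, with cornea highest and ciliary body lowest. Cornea was higher than ciliary body (log2 change 1.06 ± 0.28, adjusted p = 0.0465), a call that 6 of 14 alternatives lost, and cornea against microglia (0.80 ± 0.30, adjusted p = 0.0511) and ciliary body against microglia (-0.27 ± 0.31, adjusted p = 0.549) were not called. Ccl22 was highest in ciliary body. It stood at 94.4 and 92.3 CPM in cornea macrophages, 166 and 265 CPM in ciliary body macrophages and 0 in retinal microglia. Cornea against ciliary body was not called (-1.27 ± 0.35, adjusted p = 0.0612), whereas cornea was at least 6.54-fold (adjusted p = 0.000385) and ciliary body at least 15.7-fold (adjusted p = 1.75e-05) higher than microglia. In ciliary body its transcripts lay in 25 of 111 cells.

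The neutrophil attractant Cxcl2 was high in both macrophage populations and near 0 in microglia. It stood at 5645 and 7882 CPM in cornea macrophages and 2546 and 3793 CPM in ciliary body macrophages, against 0 and 34.4 CPM in retinal microglia. The cornea pairs lay above the ciliary body pairs, but that difference was not called (log2 change 1.04 ± 0.36, adjusted p = 0.149). Against microglia, which had 5 transcripts, the log2 change was 8.42 ± 0.57 in cornea (adjusted p = 2.79e-07) and 7.38 ± 0.56 in ciliary body (adjusted p = 6.21e-07). Because these 5 transcripts lay in 1 microglial pair, the size is poorly fixed, and with each pair left out it ranged from 7.84 to 13.55 in cornea and from 6.83 to 12.53 in ciliary body, with both called throughout. Cxcl2 was found in 73.6% of thinned cornea macrophages, 54.1% of ciliary body macrophages and 1.68% of microglia.

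Cxcl1 stood at 518 and 813 CPM in cornea macrophages and 23.1 and 156 CPM in ciliary body macrophages, against 0 and 6.88 CPM in microglia. The groups did not overlap. The difference between cornea and ciliary body, a log2 change of 2.78 ± 0.67, was not called (adjusted p = 0.11), although 8 of 14 alternatives called it, over a range of 6.4e-12 to 0.287. Microglia had 1 transcript, so cornea was higher by a ratio of 140.4 with a counting interval of 25 to 5567 (adjusted p = 0.00781), and ciliary body by a ratio of 21.5 with an interval of 3.73 to 862 (adjusted p = 0.0922). The cornea call was lost without the first control pair (adjusted p = 0.0954) and without the second (adjusted p = 0.167). In cornea, 272 Cxcl1 transcripts lay in 35 of 121 cells, and 5 wells held 57.6% of them.

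Cxcl16 was high in both macrophage populations, at 715 and 792 CPM in cornea and 767 and 832 CPM in ciliary body, against 92.5 and 68.8 CPM in retinal microglia. The cornea and ciliary body pairs overlapped (log2 change -0.15 ± 0.27, adjusted p = 0.864). Both lay above microglia, by 3.50 ± 0.36 in cornea (adjusted p = 3.9e-06) and 3.65 ± 0.35 in ciliary body (adjusted p = 2.43e-06) on the log2 scale. It was also widely spread, with a transcript in 76% of cornea and 82% of ciliary body macrophages before thinning, and 1 well held no more than 4.24% of its transcripts.

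**Figure D3:**
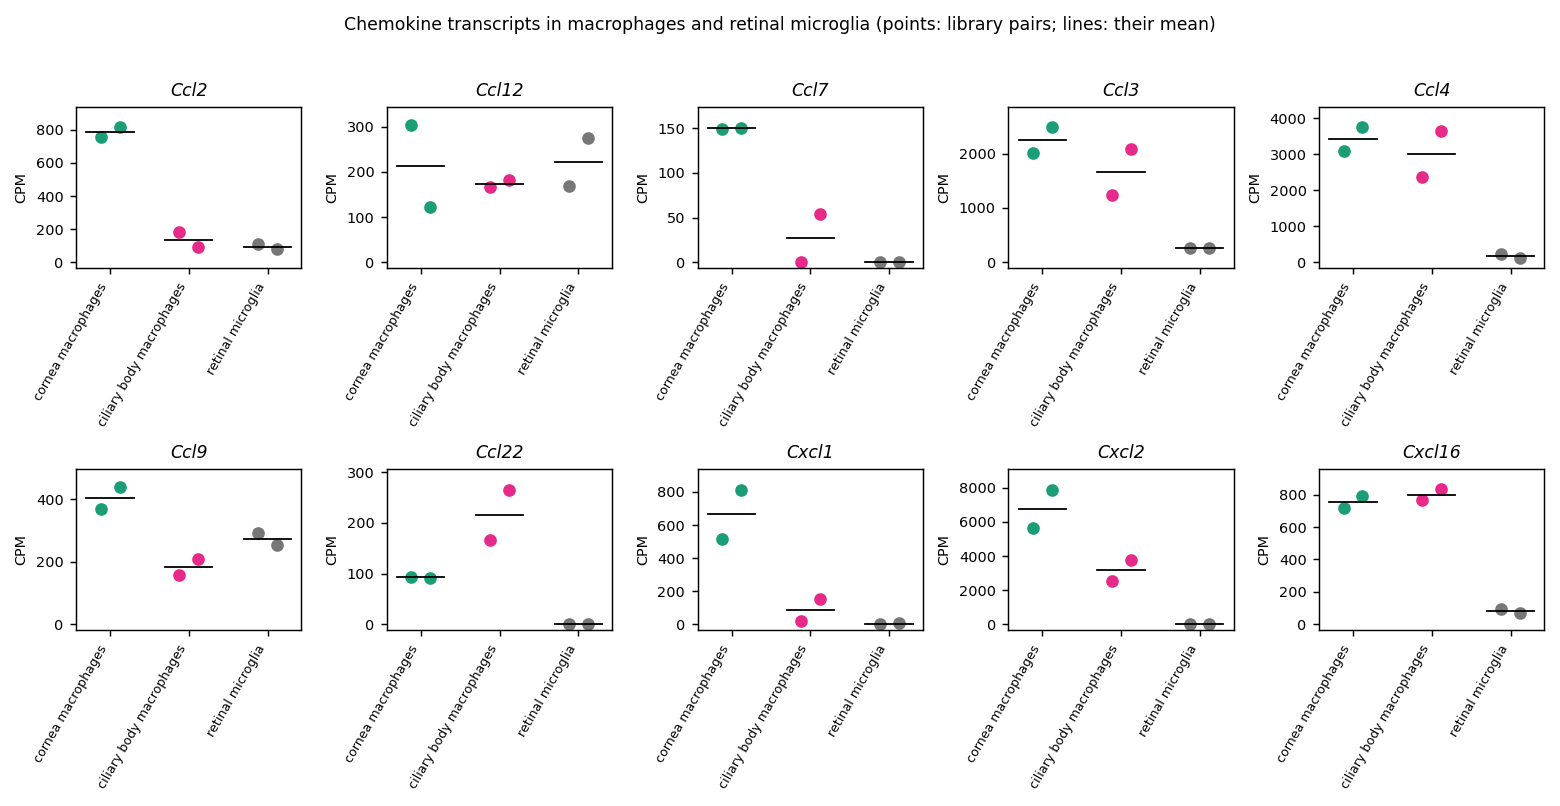
Levels of the 10 chemokines in CPM (y axes, linear, each with its own scale) in cornea macrophages, ciliary body macrophages and retinal microglia of control retina; each point is a library pair and each line the mean of 2 pairs. Ccl2 at 756 and 817 CPM set cornea apart, while the Cxcl16 and Ccl4 pairs of cornea and ciliary body overlapped and lay above those of microglia.

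In total, 2 of 10 members were called higher in cornea than in ciliary body macrophages and 0 lower, where 3.64% of 4701 genes were called, with a median log2 change of 0.72 over the members and -0.03 over all genes. Cornea macrophages had 8 of 10 members higher than retinal microglia and 0 lower, where 33.1% of genes were called. The median was 4.06 over the members, or 3.35 with genes at 0 in microglia set to their bound, and 0.05 over all genes. Ciliary body macrophages had 5 of 10 higher and 0 lower, where 29.2% of genes were called, with a median of 4.01, at the bound 3.27, and -0.03 over all genes. The last 2 comparisons share the microglial pairs. In both, Ccl7, Ccl22, Cxcl1 and Cxcl2 had 0, 0, 1 and 5 microglial transcripts and passed the filter through the macrophages. These genes could therefore only be called higher, and they enter the counts and medians. Of the other members, Ccl2, Ccl3, Ccl4 and Cxcl16 were called in cornea, and Ccl3, Ccl4 and Cxcl16 in ciliary body.

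**Figure D4:**
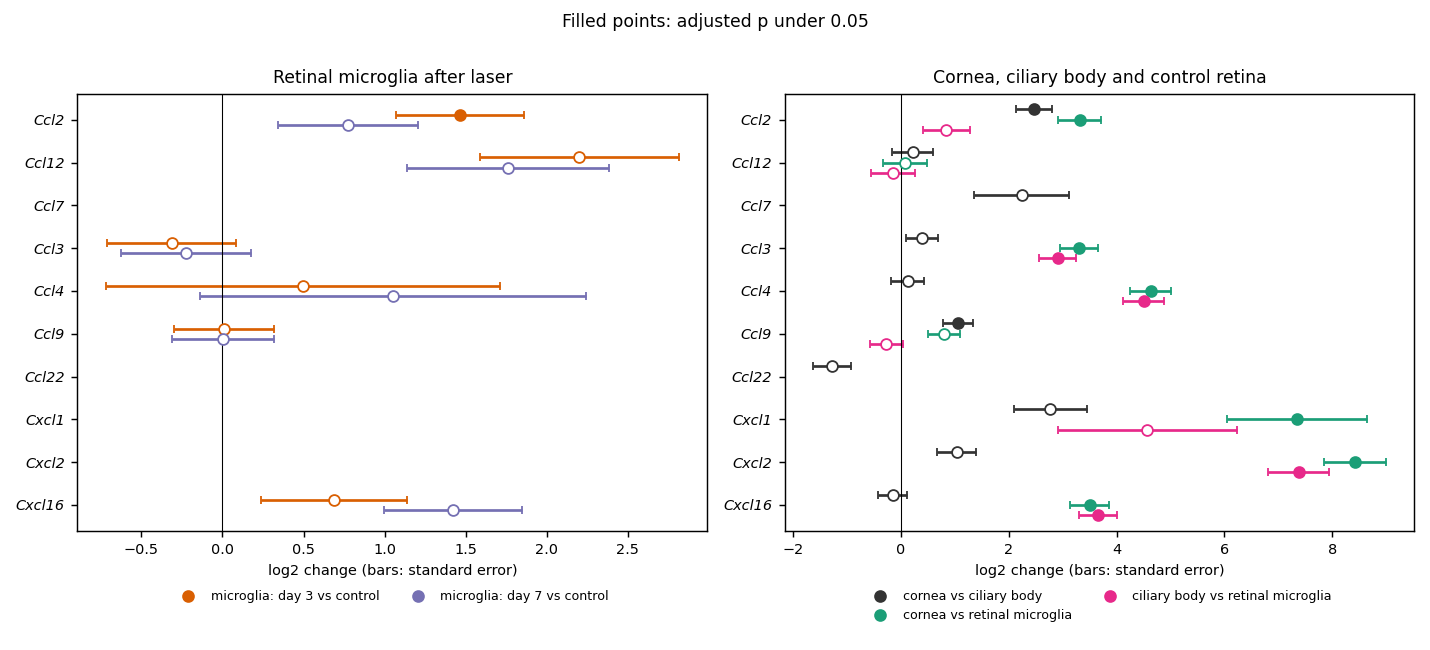
Log2 changes (x axes) with standard errors for the members that could be fitted, in retinal microglia at laser day 3 and day 7 against control (left) and among cornea macrophages, ciliary body macrophages and retinal microglia (right); filled points passed an adjusted p of 0.05, and genes at 0 in a group have no point. Ccl2 at 1.47 is the filled point on the left, and Ccl2 at 2.47 and Ccl9 at 1.06 are the filled points between cornea and ciliary body.

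Genes of NF-kB signalling and immediate early genes were high in the same macrophages, and their part in the chemokine levels was not tested. The 19 NF-kB genes summed to 14382 and 15488 CPM in cornea macrophages and 14134 and 19204 CPM in ciliary body macrophages, against 1696 and 2098 CPM in microglia. Of 17 tested, 14 were higher and 0 lower in cornea (median 2.38) and 16 higher and 0 lower in ciliary body (median 2.26) than in microglia, led by Il1b (log2 change 6.71 ± 0.45 in cornea and 7.24 ± 0.46 in ciliary body), Tnf (5.32 ± 0.49 and 4.86 ± 0.48), Nfkbiz (4.76 ± 0.46 and 5.18 ± 0.46) and Nfkbia (3.46 ± 0.37 and 4.10 ± 0.38). The immediate early genes summed to 14809 and 23186 CPM in cornea and 10335 and 18275 CPM in ciliary body, against 3222 and 3845 CPM in microglia. Of 14 tested, 14 were higher in cornea (median 3.64) and 12 in ciliary body (median 2.85), with 0 lower, including Atf3 (6.45 ± 0.56 and 5.84 ± 0.57), Fosb (6.08 ± 0.54 and 5.56 ± 0.55), Nr4a1 (7.74 ± 0.72 and 8.05 ± 0.71, from 1 microglial transcript), Dusp1 in cornea (3.80 ± 0.42) and Ier2 in ciliary body (4.09 ± 0.45). Of all genes tested, 33.1% were called in cornea and 29.2% in ciliary body against microglia. Atf3 and Fosb rested on 4 microglial transcripts each, Ier2 on 6 and Il1b on 8. Genes this low in microglia passed the filter through the macrophages and could hardly be called lower. They enter the counts and medians. Between cornea and ciliary body 0 of the 17 NF-kB genes were called by edgeR, with 1 at an unadjusted p under 0.05 (median -0.27). Of 14 immediate early genes 1, Ier3, was higher in cornea (1.19 ± 0.30, adjusted p = 0.0372, median 0.41), where 3.64% of all genes were called.

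Among the receptors, 8 were tested. Against microglia, 4 were higher and 3 lower in cornea (median 1.15) and 4 higher and 2 lower in ciliary body (median 2.47). Ccr2 (log2 change 6.46 ± 0.67 in cornea and 6.22 ± 0.68 in ciliary body, from 1 microglial transcript), Ccr1 (3.83 ± 0.50 and 3.61 ± 0.50) and Ccrl2 (3.52 ± 0.44 and 3.94 ± 0.42) were higher and Cx3cr1 lower (-2.75 ± 0.32 and -2.15 ± 0.31). Ccr1 rested on 4 microglial transcripts and Ccrl2 on 7, so these 3 receptors could hardly be called lower. Against microglia, 33.1% of all genes were called in cornea and 29.2% in ciliary body, and 3.64% were called between the 2 tissues. Between cornea and ciliary body 0 of 8 receptors and 0 of 5 other chemokines were called, with 2 and 0 at an unadjusted p under 0.05 (medians -0.26 and 0.27). Of the 5 other chemokines, 2 were higher in cornea than in microglia (median 4.15, at the bound 2.42), and 2 were higher and 2 lower in ciliary body (median 4.71, at the bound 2.84). Pf4, platelet factor 4 (6.25 ± 0.87 in cornea and 5.86 ± 0.90 in ciliary body), and Cxcl10 (4.25 ± 0.69 and 4.80 ± 0.64), which rested on 1 and 2 microglial transcripts, were higher, and Ccl6 (-1.18 ± 0.36) and Ccl5 (-2.59 ± 0.79) were lower in ciliary body.

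Corneal epithelial transcripts were present in the wells of cornea macrophages, as given above. In the 333 wells of the cornea libraries that lay outside the annotation and had at least 1000 transcripts, Cxcl2 lay between 407 and 726 CPM, Cxcl1 between 52 and 102 CPM, Ccl2 between 44.4 and 96.7 CPM and Ccl4 between 221 and 294 CPM per library. Each of these was below the value of either cornea macrophage pair. In the 82 such wells of the ciliary body libraries, Ccl3 lay between 45.3 and 2617 CPM (median 1522) and Ccl4 between 90.7 and 3689 CPM (median 2437), ranges that take in the ciliary body macrophage pairs.

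Individual macrophages differed widely. Of cells thinned to 1000 transcripts, 66.9% of cornea macrophages and 46.8% of ciliary body macrophages held 3 or more of the 10 chemokines, against 7.56% of retinal microglia, and the median number was 4 in cornea, 2 in ciliary body and 1 in microglia. Ccl3 and Ccl4 went together from cell to cell. In cornea 79 of 121 cells held both, with Pearson's r = 0.83 over cells of log2 CPM with 100 added, and in ciliary body 67 of 111 held both, with r = 0.84. For Cxcl2 and Ccl4 r was 0.54 in cornea and 0.65 in ciliary body, and for Cxcl2 and Cxcl16 it was 0.42 and 0.30. Cells of a library share depth and handling, so these values are descriptions. Across the authors' 9 macrophage clusters, Cxcl2 ran from 246 CPM in cluster 1 (26 cells, 25 of them from ciliary body) to 22393 CPM in cluster 16 (8 cells, 7 of them from cornea). Ccl22 was highest in cluster 3 (56 cells, 33 from cornea and 23 from ciliary body), at 515 CPM, where Ccl3 was at 422 CPM.

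**Figure D5:**
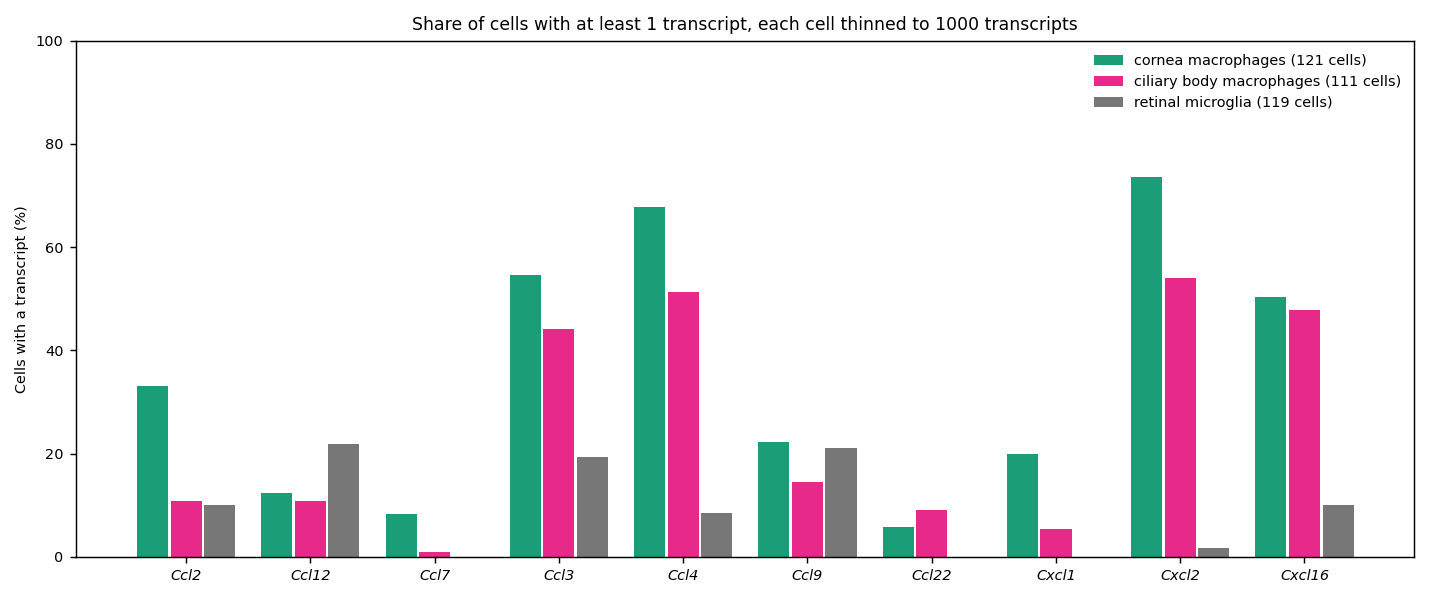
Share of cells (y axis, percent) with at least 1 transcript of each chemokine after each cell was thinned to 1000 transcripts, in cornea macrophages, ciliary body macrophages and retinal microglia. Cxcl2 was found in 73.6%, 54.1% and 1.68% of these cells and Ccl22 in 5.79%, 9.01% and 0%, in that order.

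The joint class of the ciliary body, 73 cells, was intermediate for several members. Cxcl2 stood there at 764 and 1357 CPM, Ccl3 at 536 and 606 CPM and Ccl4 at 475 and 706 CPM, each below the macrophages and above the microglia of control retina. Ccl2 stood at 40.1 and 56.1 CPM. Immediate early genes summed to 15657 and 17088 CPM in this class, within the range of the macrophages.

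Across 22 sums of a class, group and pair with at least 30000 transcripts, each member was set against genes with at least 100 transcripts, on log2(CPM + 10). The sums share libraries, and 111 wells of control retina stand in both tables, so the correlations describe these samples. Ccl3 and Ccl4 were nearest to each other (r = 0.91), followed for Ccl3 by Cd14 (0.89) and Il1a (0.88) and for Ccl4 by Egr2 (0.87) and Cxcl2 (0.87). Cxcl2 was nearest to Fosb, Ptgs2 and Hspa1a (0.97, 0.96 and 0.96), and Cxcl1 to Egr2, Hspb1 and Nccrp1 (0.94, 0.92 and 0.91), with r = 0.90 between Cxcl1 and Cxcl2. Ccl2 was nearest to C5ar1, C3ar1 and Adgre1 (0.92, 0.86 and 0.85), and Ccl12 to C1qb, Fcrls and C1qc (0.92, 0.91 and 0.91). Ccl9 was nearest to Smox, Ehd4 and Cln8 (0.86, 0.85 and 0.84), Ccl22 to Relb, Zmynd15 and Marcksl1 (0.89, 0.86 and 0.84), and Cxcl16 to Tnip3, Dab2 and Pmaip1 (0.87, 0.87 and 0.85). Ccl22 and Ccl12 had the lowest correlation of 2 members, at -0.35. Ccl7 had fewer than 100 transcripts and was left out.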

How the data were processed

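CD45+ cells of 20 mCEL-Seq2 libraries were analysed. The authors deposited estimated counts of transcripts for each gene in each well. BWA 0.6.2-r126 is named in the submitters' processing notes, while the genome build, annotation or strand setting was not given in the sources used here. The authors' 2 unnormalized tables carry no gene names, so their wells were matched to the library files by library and well number, and genes were named by identical rows of values. The tables leave out 96 and 276 genes of the library files, which hold 37.2% and 38.9% of the transcripts and include mitochondrial genes, so CPM refer to what remains.

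Estimated counts were summed over the cells of a class in each library pair and rounded. edgeR 4.0.16 (filterByExpr, TMM, robust quasi-likelihood fit) tested all genes that passed the filter, with Benjamini-Hochberg adjustment and a threshold of 0.05. DESeq2 1.42.0 was an alternative. The scripts were tested on simulated data. The members and lists were chosen with earlier results of these data known. All 10 members are named, with up to 4 called genes per list and comparison by the smallest adjusted p, and for each member the 3 genes most alike. Shares of transcripts have Wilson intervals and ratios of transcripts exact binomial ones, both at 95% and for counting error only. Other scalings, filters, single libraries, thinned sums and each pair left out were tried as alternatives. A further alternative summed Ccl2 and Ccl12 to a single feature. It is counted under Ccl2, so the counts and ranges given for Ccl2 over the alternatives take it in.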

Additional observations from a re-analysis of the deposited data

Results flagged for a closer look

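In all, 39 groups of 4 libraries were examined, of which chance flags about 1 in 20, and 3 were flagged. Ccl12 in day 3 microglia stood at 3234 CPM in a library of 12 cells, while the other 3 libraries lay between 699.9 and 936 CPM. In the same library Ccl3 stood at 434 CPM, while the others lay between 148.7 and 193 CPM. Ccl7 in ciliary body macrophages stood at 103 CPM in a library of 42 cells and at 0 in the other 3.

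In wells outside the annotation with at least 1000 transcripts, 2 of the 10 members were higher in each day 3 retina library than in any control library. The share of all genes that separate in this way is not given here. The separation therefore cannot be read as particular to these members. Ccl22 lay between 23.9 and 360.1 CPM at day 3, against 0 in the control libraries. Cxcl16 lay between 71.5 and 167.6 CPM at day 3, against at most 32.6 CPM in control. These wells carry no cell name, and 107 at day 3 and 76 in control entered.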

How the results depend on the processing

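The number of members called moved as follows. For microglia at day 3 against control, 1 in the fit above, it was 2 without the filter on low counts, with single libraries, with wells of at least 1000 transcripts and at most 25% mitochondrial, with cells of the same signature call, with all genes of the library files and without the richest well of each pair, and 0 with sums thinned to the smallest. For day 7 against control, 0 above, it was 1 with DESeq2, without the filter, with single libraries, with the filtered wells, with the same signature call and without the richest wells, and for day 7 against day 3 it was 1 without the richest wells. In the joint class, 0 above, it was 1 without the filter and 1 with the replicate block. Over all retinal cells it was 4 without the filter at day 3, and at day 7 it was 1 with single libraries and 1 with thinned sums. Cornea against ciliary body, 2 above, gave 1 with DESeq2, 4 without the filter and 4 with single libraries. Over the alternatives, the share of all genes called also moved. It ran from 3.66% to 44.6% for microglia at day 3 and from 0.306% to 13.8% at day 7. Between the days it ran from 1.47% to 25.2%. Over all retinal cells it ran from 6.98% to 45.2% at day 3 and from 3.03% to 26.4% at day 7. For cornea against ciliary body it ran from 1.17% to 9.08%. The causes were not tested.

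With each pair left out, the number of members called ranged from 0 to 2 for microglia at day 3, 0 to 1 at day 7 and 0 to 1 between the days, 0 to 1 in the joint class, 1 to 4 and 0 to 3 over all retinal cells at day 3 and day 7, 2 to 5 for cornea against ciliary body, 6 to 9 for cornea against microglia and 5 to 7 for ciliary body against microglia. Ccl4 in microglia between day 7 and day 3 ranged from -1.54 to 1.44 on the log2 scale and was called at the lower end, without the second day 7 pair, where it reversed. With 1 pair left in a group, that pair is assumed to vary like the other groups. Over single members, 820 values under an alternative kept their side of the threshold, 71 passed it where the fit above did not, and 24 lost it. Among all genes tested, DESeq2 called 7.01% in microglia at day 3, 0.907% at day 7 and 2% between the days (edgeR 22.3%, 1.69% and 9.79%), 0.491% in DC and 1.21% in the joint class (0.179% and 0.345%), 14.7% and 6.25% over all retinal cells (26.8% and 11.9%), and 1.17%, 20.1% and 18.1% in the comparisons of cornea, ciliary body and microglia (3.64%, 33.1% and 29.2%). Log2 values here are edgeR's, moderated by its prior count, whereas those with standard errors are not.

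The title prefixes are not stated to mark animals, and the correlations of same-prefix pairs lay between -0.0894 and 0.188, so the replicate block with prefix P1 or P2 stands here alone. It gave 1 member called for microglia at day 3, 0 at day 7 and 0 between the days. In these comparisons 23.6%, 2.31% and 11.8% of all genes were called. Over all retinal cells the block gave 3 members at day 3 and 2 at day 7, where 25.3% and 10% of genes were called. In DC it gave 0, and it moved the genes called to 0.446% in DC and 3.28% in the joint class. No paired analysis was possible for the macrophages because cornea and ciliary body share no prefix. The 2 pairs a group, and classes of as few as 26 cells, limit what these tests can detect.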
